A study of Chromochloris zofingiensis with 6 samples.

Results

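The genes described here encode the subunits of the proteasome and the chaperones of the green alga *Chromochloris zofingiensis* (*C. zofingiensis*, strain ATCC30412). The members are the 32 genes that the study's gene tables list as proteasome genes and the 20 genes that they list as chaperones, 52 in all, of 15037 genes listed in at least 1 library. Cells in exponential phase were harvested, washed and placed in fresh Kuhl medium with 200 mM NaCl, and poly-A RNA was sequenced from 3 cultures collected at 6 h and from 3 cultures collected at 0 h. All 6 cultures are of the same strain, and the labels name no mutation or transgene. No library of cells kept for 6 h without salt is among these 6, so the effects of salt, time, handling and fresh medium cannot be told apart. The labels do not say whether the medium of the 0 h cells already held salt.

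The proteasome is the large protease of the cytosol and nucleus that degrades proteins tagged with ubiquitin. Its 20S core is a barrel of stacked rings, in which the alpha subunits form the gates and the beta subunits the chamber where proteins are cut. A regulatory particle caps the barrel, and its ATPases unfold the substrate while its non-ATPase subunits bind and remove ubiquitin. Chaperones act on damaged or unfolded proteins. Members of the HSP70 system refold them, and ClpB-type HSP100 proteins pull them out of aggregates. Small heat-shock proteins of the HSP20 family hold them in a soluble state. High salt is known to unfold proteins, which places both systems among the usual objects of salt-stress studies.

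Expression was deposited as FPKM, in which fragments are counted relative to the length of the gene model and to the mapped fragments of the library, so levels can be compared between genes. The deposited sums per library ran from 936327 to 1135976 FPKM at 6 h and from 924660 to 977297 at 0 h. Libraries were scaled by median-of-ratios factors (0.884 to 0.914 in the 6 h libraries and 1.11 to 1.13 in the 0 h libraries), and log2 was taken after adding 0.1. The times were compared with limma over the 13886 genes whose mean reached 1 FPKM at 6 h or at 0 h. A gene is called higher or lower where the adjusted p is under 0.05 and the log2 fold change is 1 or more in size. All values given per culture are deposited FPKM, whereas all log2 fold changes (6 h over 0 h, with their SE) are on the scaled values with 0.1 added. The cultures differed more from each other at 6 h than at 0 h, with a residual SD per library of 0.289 to 0.630 log2 units at 6 h, against 0.165 to 0.195 log2 units at 0 h. The scaling matters for every count that follows. The median log2 fold change of all genes tested was -0.04 with it, -0.34 without scaling or with upper-quartile scaling, and -0.47 on TPM (each library rescaled to the same sum), and 42.9% of all calls were rises with it, against 30.1%, 30.3% and 25.5%.

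Most members had more transcript at 6 h than at 0 h. Of the 51 members that passed the filter, 33 were called higher, 2 lower and 16 neither way. Over all genes tested, 20% were called higher and 26.6% lower. Without the limit on the fold change, 46 members had an adjusted p under 0.05, 43 of them higher at 6 h and 3 lower, where 67.4% of all genes tested did, 33.6% higher and 33.8% lower. The deposited FPKM of the members added up to 10047, 9042 and 6862 in the 6 h cultures and to 4360, 4331 and 4528 in the 0 h cultures, and thereby to 0.884, 0.858 and 0.733% of the library at 6 h and 0.472, 0.460 and 0.463% at 0 h. The excluded member, the HSP20 family gene Cz04g34030, was listed in a single library, at 0.15 FPKM in 0 h replicate 2, and was too low to be tested. In these bulk samples fewer cells of one state and less RNA per cell cannot be told apart.

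Every call among the proteasome genes was a rise. All 32 were tested, 24 were called higher and 0 lower (limma, and 0 genes with a log2 fold change below 0 at an unadjusted p under 0.05 as well). Their median log2 fold change was 1.33 (range -0.65 to 1.81), beside -0.04 for all genes tested. In the deposited FPKM, 29 of them had all 6 h values above all 0 h values and 2 had all 6 h values below, whereas 27.2% and 46.1% of all genes tested did so. On TPM 11 of the 24 calls remained and 1 gene was called lower, while the share of all genes tested that was called higher was 11.7% on that scale. With the fold limit placed inside the test (limma treat) a single call remained, that of the 20S beta 1 gene Cz16g07050.

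**Figure D1:**
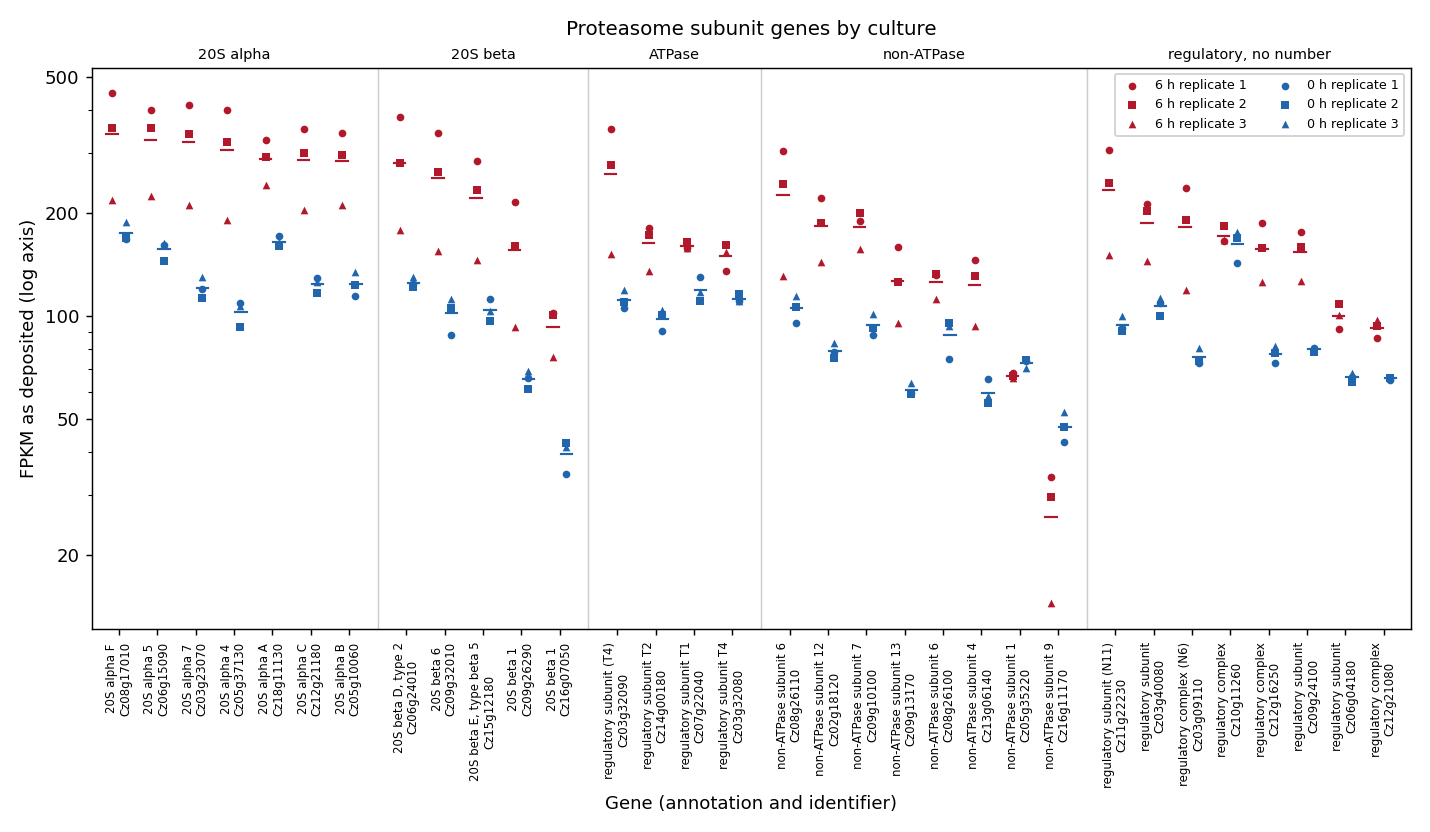
Deposited FPKM of the 32 proteasome genes in each culture (log axis), grouped by role and ordered by the mean at 6 h; red symbols are the 3 cultures at 6 h, blue symbols those at 0 h, and short lines are the means. Every 20S gene has its 6 h values above its 0 h values, whereas non-ATPase subunits 1 and 9 have them below.

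All 7 alpha subunit genes of the 20S core were called higher, with log2 fold changes of 1.09 to 1.81 and a median of 1.47. The largest change was in alpha 4 (Cz05g37130), with 402, 322 and 192 FPKM in the 6 h cultures and 109, 93.1 and 107 FPKM in the 0 h cultures, a log2 fold change of 1.81 (SE 0.28, adjusted p = 0.00178). It was the lowest alpha subunit in each 0 h culture. The smallest was in alpha A (Cz18g11130), with 327, 293 and 241 FPKM at 6 h and 171, 159.9 and 165 FPKM at 0 h, a log2 fold change of 1.09 (SE 0.14, adjusted p = 0.000864) that was 0.98, under the limit, without 6 h replicate 1. All 6 h values of both genes lie above all 0 h values. The 7 alpha subunits had similar levels in every library, more so than the 5 beta genes. The lowest beta genes in every library were the pair that share the annotation beta 1. Without that pair the beta genes stood at 285 to 383 FPKM in 6 h replicate 1 and at 88.0 to 124 FPKM in 0 h replicate 1. The alpha genes stood at 327 to 449 and 109 to 171 FPKM there. Among the beta genes the highest was 2.35 to 3.75 times the lowest in the 6 h cultures and 2.86 to 3.58 times in the 0 h cultures. For the alpha genes these ratios were smaller. The highest alpha gene was 1.21 to 1.37 times the lowest in the 6 h cultures and 1.57 to 1.82 times in the 0 h cultures. The coefficient of variation among the 7 alpha genes was 7.29 to 11.5% in the 6 h cultures and 19.3 to 20.9% in the 0 h cultures.

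The 5 beta subunit genes were called higher as well, with log2 fold changes of 1.35 to 1.56. Beta 6 (Cz09g32010) had 344, 263 and 155 FPKM at 6 h and 88.0, 105 and 112 FPKM at 0 h, a log2 fold change of 1.56 (SE 0.30, adjusted p = 0.00447). Beta E (Cz15g12180), annotated as type beta 5, the type that carries the chymotrypsin-like site, had 285, 234 and 146 FPKM at 6 h and 112, 96.7 and 103 FPKM at 0 h, a log2 fold change of 1.35 (SE 0.26, adjusted p = 0.00429). In both genes every 6 h value lies above every 0 h value, and 6 h replicate 3 is the closest to the 0 h cultures. A pair of genes carries the annotation beta 1, the type with the caspase-like site. Cz09g26290 had 215, 161 and 92.6 FPKM at 6 h and 65.7, 61.0 and 69.3 FPKM at 0 h, whereas Cz16g07050 had 102, 101 and 76.1 FPKM at 6 h and 34.6, 42.5 and 41.5 FPKM at 0 h. Their log2 fold changes were near each other, 1.48 (SE 0.31, adjusted p = 0.00607) for Cz09g26290 and 1.53 (SE 0.16, adjusted p = 0.000321) for Cz16g07050. Cz16g07050 was the lowest 20S gene in all 6 libraries, and Cz09g26290 stood at 1.22 to 2.10 times its level at 6 h and 1.44 to 1.90 times at 0 h.

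Of the 4 regulatory ATPase genes, 2 were called higher. These ATPases form the base ring of the regulatory particle. T2 (Cz14g00180) was just over the limit, with a log2 fold change of 1.03 (SE 0.14, adjusted p = 0.00112), and lost its call without 0 h replicate 1 (0.98), 6 h replicate 1 (0.94) or 6 h replicate 2 (0.99). The call of T2 was also lost without scaling (0.72), with upper-quartile scaling (0.72) and on TPM (0.59). T1 (Cz07g22040) had a log2 fold change of 0.74 (SE 0.10, adjusted p = 0.00113), under the limit. T4 is given by a pair of genes with neighbouring identifiers, of which Cz03g32090 is named T4 by orthology only. Cz03g32090, the largest change of the group, had 353, 277 and 152 FPKM at 6 h and 105, 109.7 and 119 FPKM at 0 h, a log2 fold change of 1.45 (SE 0.31, adjusted p = 0.00686). Cz03g32080, the smallest, had 136, 161 and 154 FPKM at 6 h and 111, 116 and 111 FPKM at 0 h, a log2 fold change of 0.72 (SE 0.10, adjusted p = 0.000991). The level of Cz03g32090 was 2.60, 1.72 and 0.991 times that of Cz03g32080 in the 6 h cultures and 0.954, 0.944 and 1.07 times in the 0 h cultures, so the pair diverged in 6 h replicates 1 and 2 and stood level in 6 h replicate 3. Whether reads are shared between neighbouring genes was not tested.

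Of the 8 numbered non-ATPase subunit genes, 5 were called higher, and this group held the widest range among the proteasome genes. Subunit 12 (Cz02g18120), in human a part of the lid of the regulatory particle, had 221, 187 and 144 FPKM at 6 h and 78.5, 75.6 and 83.2 FPKM at 0 h, a log2 fold change of 1.50 (SE 0.18, adjusted p = 0.000535). Subunits 4, 7 and 13, among them the ubiquitin receptor known as subunit 4 in human, were called higher with log2 fold changes of 1.26 to 1.34. Subunit 9 (Cz16g11170), which in human and yeast assists the assembly of the regulatory particle and is not part of the finished complex, went the other way in the deposited values. It had 33.8, 29.5 and 14.4 FPKM at 6 h and 42.8, 47.3 and 52.5 FPKM at 0 h. Its log2 fold change of -0.65 (SE 0.33, adjusted p = 0.124) did not pass the test, whereas on TPM it was called lower (-1.09, adjusted p = 0.0115). It was the lowest gene of the regulatory particle in every library.

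Subunit 1 (Cz05g35220), the scaffold of the regulatory particle in human, was not called either. It had 68.4, 66.9 and 65.7 FPKM at 6 h and 73.9, 74.4 and 70.6 FPKM at 0 h, so the deposited values lie slightly lower at 6 h without overlap. On scaled values its log2 fold change was 0.19 (SE 0.09, adjusted p = 0.116), and it was below 0 without scaling (-0.12), with upper-quartile scaling (-0.12) and on TPM (-0.26). Subunit 6 is given by a second pair of neighbouring identifiers. Cz08g26110 had 304, 243 and 131 FPKM at 6 h and 95.5, 106 and 114 FPKM at 0 h and was called higher (log2 fold change 1.33, SE 0.32, adjusted p = 0.0102). Cz08g26100 had 132, 132 and 112 FPKM at 6 h and 75.1, 95.6 and 93.3 FPKM at 0 h, with a log2 fold change of 0.82 (SE 0.14, adjusted p = 0.00228), under the limit. As in the T4 pair, the ratio of the more changed gene to its neighbour was largest in 6 h replicate 1, with 2.30, 1.84 and 1.17 in the 6 h cultures against 1.27, 1.11 and 1.22 in the 0 h cultures.

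The remaining 8 regulatory genes carry no subunit number in their main annotation. By orthology Cz11g22230 is N11 and Cz03g09110 is N6, and both were left in this group. Cz03g32090, in contrast, was placed with the ATPases by its orthology name. Here 5 were called higher, and all 8 had an adjusted p under 0.05 with a log2 fold change above 0. Cz11g22230, by orthology subunit N11, the deubiquitinase of the lid in human and yeast, had the largest change, with 307, 245 and 151 FPKM at 6 h and 92.2, 90.2 and 100.3 FPKM at 0 h, a log2 fold change of 1.56 (SE 0.27, adjusted p = 0.00258). Cz10g11260 had the smallest, with 166, 184 and 167 FPKM at 6 h and 143, 169 and 177 FPKM at 0 h. Its values overlap between the times, and its log2 fold change of 0.39 (SE 0.11, adjusted p = 0.0221) was -0.050 on TPM. It was the most abundant gene of the regulatory particle at 0 h, in each of the 3 cultures.

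**Figure D2:**
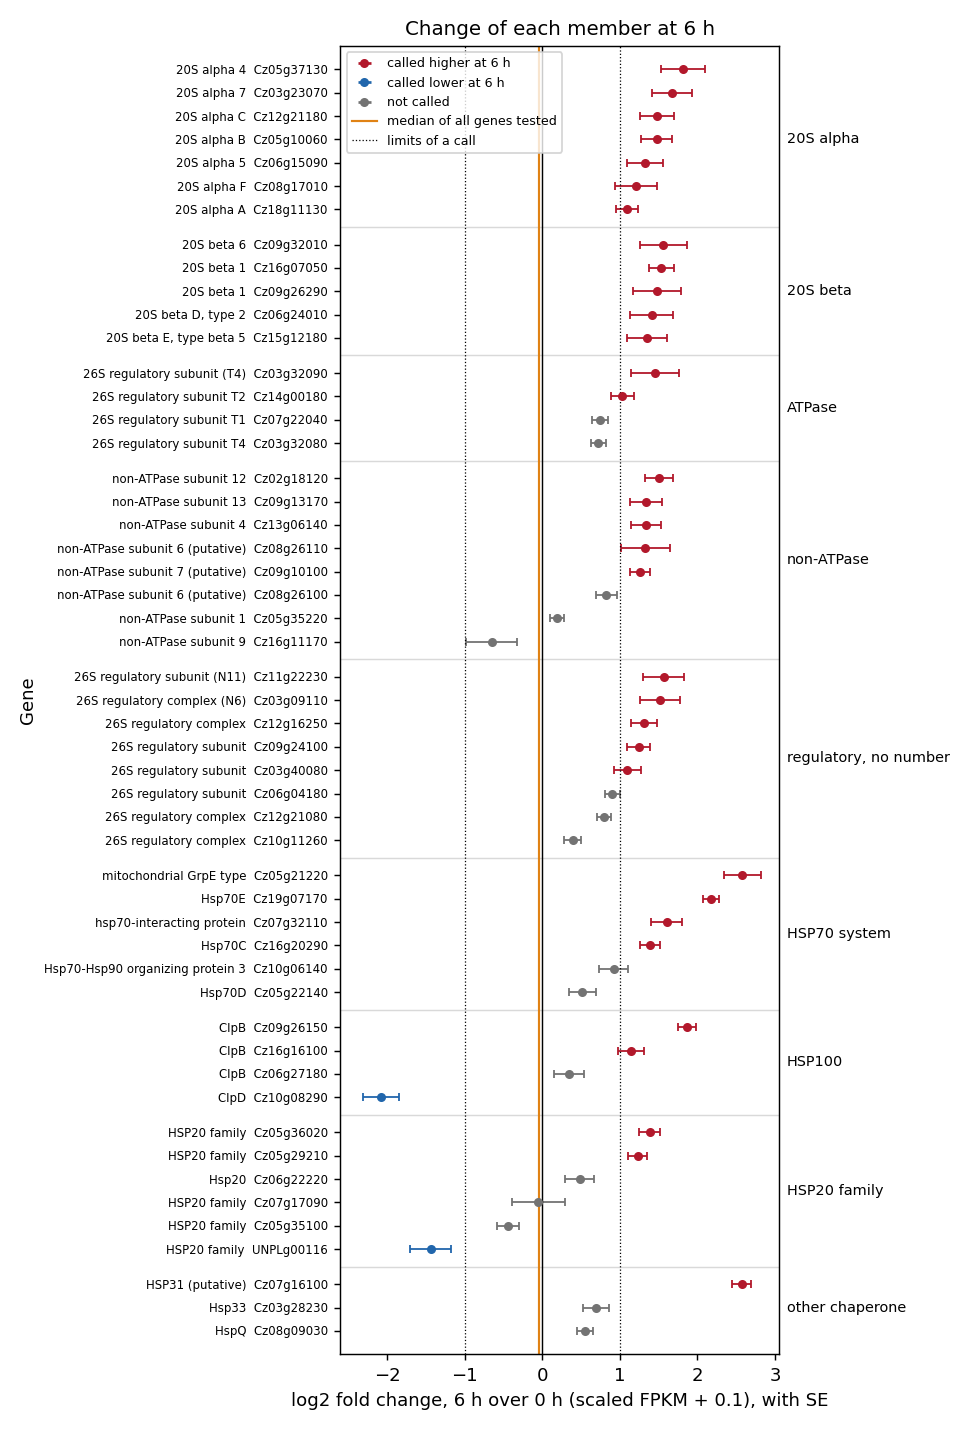
log2 fold change of each of the 51 tested members, 6 h over 0 h, on scaled FPKM with 0.1 added; bars are the SE, dotted lines the limits of a call and the orange line the median of all genes tested (-0.04). The 12 genes of the 20S core lie between 1.09 and 1.81, whereas the chaperones spread from -2.08 to 2.58.

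The median change of the core was larger than that of the regulatory particle. The 12 genes of the 20S core were all called higher, with a median log2 fold change of 1.48, and 12 of the 20 genes of the regulatory particle were, with a median of 1.17. The summed FPKM of the core was 4017, 3304 and 2154 in the 6 h cultures and 1399, 1348 and 1471 in the 0 h cultures, a ratio of means of 2.25. That of the regulatory genes was 3547, 3236 and 2446 in the 6 h cultures and 1717, 1763 and 1855 in the 0 h cultures, a ratio of 1.73. The median regulatory gene stood at 0.492, 0.553 and 0.650 of the median core gene at 6 h and at 0.676, 0.734 and 0.690 at 0 h, so the values of the 2 times do not overlap. These ratios are formed within a library and do not depend on the scaling. The difference between the gene groups was not tested, since genes are not replicates of a condition. On TPM 7 core and 4 regulatory genes were called higher, and without 6 h replicate 1 there were 10 of each.

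The 6 h cultures differed from each other in the size of the proteasome change. In all 12 genes of the 20S core, 6 h replicate 1 had the highest and 6 h replicate 3 the lowest deposited FPKM of the 6 h cultures. This order was seen in 36.6% of all genes tested and the reverse in 34.7%. Among all genes called higher the shares were 52.8% and 22.2%. In the regulatory particle 13 of 20 genes had it and 1 the reverse. On TPM 11 core genes had it, whereas 10 regulatory genes had it and 6 the reverse, beside 24.4% and 45.3% of all genes tested. In 6 h replicates 1, 2 and 3 the core genes had a median log2 difference of 1.82, 1.56 and 0.88 from the mean of the 0 h cultures, and the regulatory genes one of 1.34, 1.25 and 0.81. The scaling sets the median of all genes near 0 in each library. Every 6 h culture therefore had more transcript of the 20S core than the 0 h cultures, by amounts that differed between cultures by more than the 0 h cultures differed from their mean (-0.06 to 0.05). Of the 19 chaperones tested, 7 were highest in 6 h replicate 1 and lowest in 6 h replicate 3, and 7 the other way round. Their median differences were 1.19, 1.04 and 0.85.

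**Figure D3:**
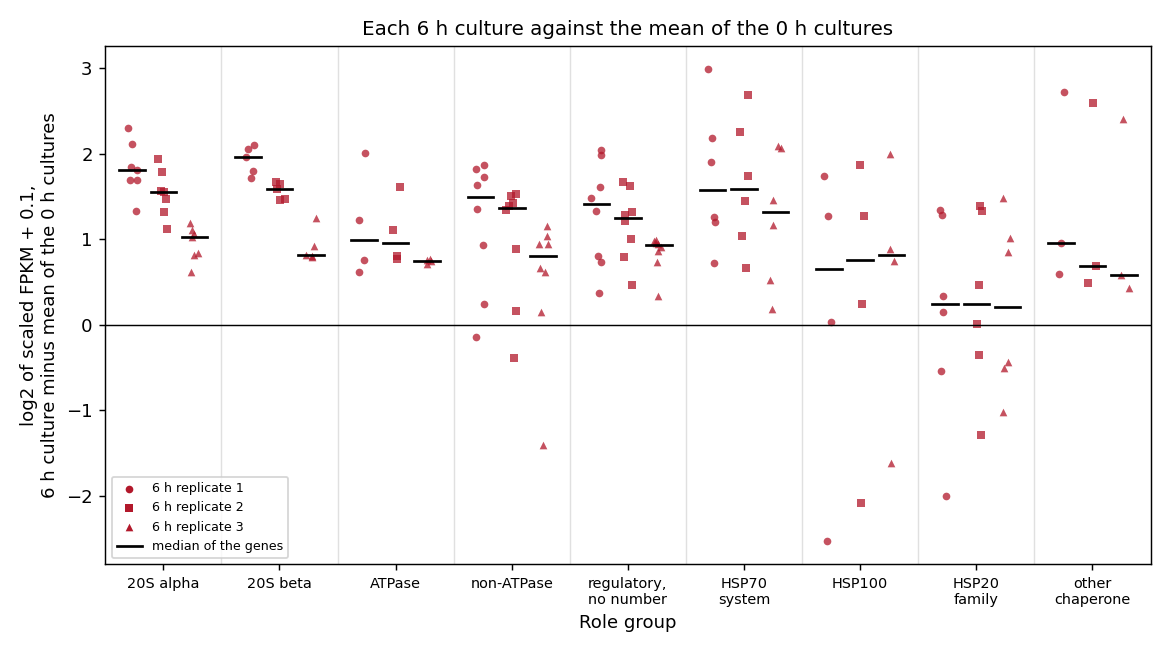
log2 of scaled FPKM with 0.1 added in each 6 h culture minus the mean of the 0 h cultures, for the genes of each role group; symbols are genes, their shape marks the culture, and black bars are medians. The core genes stand highest in 6 h replicate 1 (median 1.80 for alpha and 1.95 for beta subunits) and lowest in 6 h replicate 3 (1.02 and 0.81).

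The chaperones had calls in both directions, with more rises than falls. Of the 19 tested, 9 were called higher, 2 lower and 8 neither way, beside 20% higher and 26.6% lower over all genes tested. Their median log2 fold change was 0.92, with a range of -2.08 to 2.58. Their summed FPKM was 2483, 2502 and 2263 in the 6 h cultures and 1244, 1220 and 1203 in the 0 h cultures, and the single gene HSP31 made up the largest part of it at 6 h. In the deposited values 11 genes had all 6 h values above all 0 h values, 3 had them all below, and 5 overlapped. Of all genes tested, 27.2% had them all above and 46.1% all below. On TPM, where 11.7% of all genes tested were called higher, 5 of the 9 genes called higher kept their call. They were the GrpE gene, Hsp70E, the hsp70-interacting protein, the ClpB gene Cz09g26150 and HSP31. These 5 also kept it with the fold limit inside the test and without any single library.

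**Figure D4:**
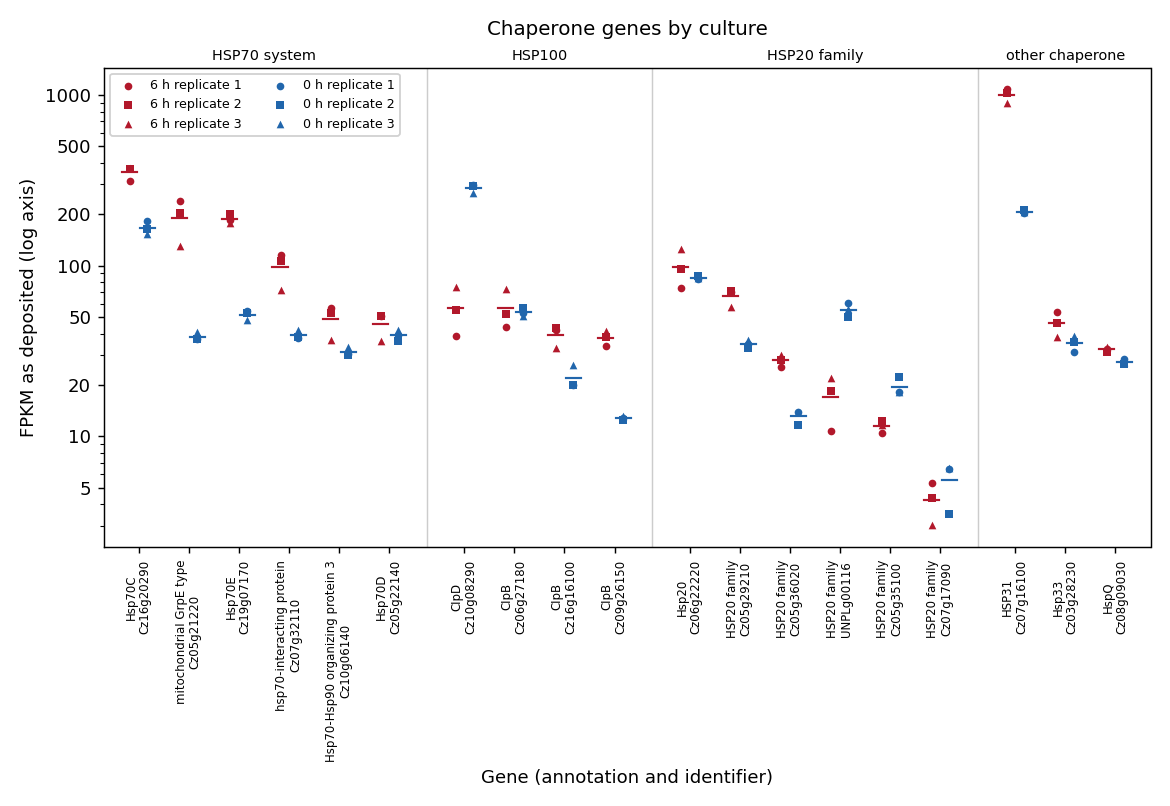
Deposited FPKM of the 19 tested chaperone genes in each culture (log axis), grouped by role and ordered by the mean at 6 h; red symbols are the 3 cultures at 6 h, blue symbols those at 0 h, and short lines are the means. HSP31 reached 893 to 1079 FPKM at 6 h, whereas ClpD and the HSP20 family genes UNPLg00116 and Cz05g35100 lie lower at 6 h than at 0 h.

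Among the 6 genes of the HSP70 system, 4 were called higher and 0 lower, and all 6 had an adjusted p under 0.05 with a log2 fold change above 0 (limma, 0 below 0 at an unadjusted p under 0.05). Of all genes tested, 20% were called higher, and 33.6% had an adjusted p under 0.05 with a log2 fold change above 0. The largest change was in Cz05g21220, a gene for a mitochondrial GrpE-type protein, the exchange factor that releases nucleotide from HSP70. It had 240.4, 203 and 131 FPKM at 6 h and 37.0, 37.3 and 40.9 FPKM at 0 h, a log2 fold change of 2.58 (SE 0.24, adjusted p = 0.00018). Hsp70E (Cz19g07170), which the orthology column of the study's table names heat-shock protein 70 member 4, had 186, 201 and 179 FPKM at 6 h and 54.1, 52.6 and 48.2 FPKM at 0 h, a log2 fold change of 2.17 (SE 0.10, adjusted p = 1.68e-05). Its 6 h values lie close together, unlike those of the GrpE gene.

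The other calls of the HSP70 system were smaller. The hsp70-interacting protein gene (Cz07g32110) had a log2 fold change of 1.60 (SE 0.20, adjusted p = 0.000676). Hsp70C (Cz16g20290), named after an HSP70 of mitochondria in *Chlamydomonas*, was the most abundant gene of the system, with 315, 371 and 373 FPKM at 6 h and 184, 163 and 154 FPKM at 0 h (log2 fold change 1.39, SE 0.12, adjusted p = 0.000165). On TPM the log2 fold change of Hsp70C was 0.95, under the limit. Hsp70D (Cz05g22140) had the smallest change, with 50.9, 50.5 and 36.0 FPKM at 6 h and 39.4, 36.2 and 41.9 FPKM at 0 h. Its values overlap and its log2 fold change was 0.52 (SE 0.17, adjusted p = 0.0343). That of Hsp70D was 0.21 (limma, adjusted p = 0.298) without scaling and 0.08 (adjusted p = 0.582) on TPM. The gene listed as Hsp70-Hsp90 organizing protein 3 (Cz10g06140) had a log2 fold change of 0.92 (SE 0.19, adjusted p = 0.0057), and 1.13 without 6 h replicate 3. The orthology column names it a protein phosphatase 5, so its role is uncertain.

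The HSP100 genes went in opposite directions. ClpB proteins are disaggregases, and ClpD is a partner of the Clp protease in plant chloroplasts. The ClpB gene Cz09g26150 had 33.9, 38.3 and 41.6 FPKM at 6 h and 12.8, 12.5 and 13.1 FPKM at 0 h, a log2 fold change of 1.86 (SE 0.12, adjusted p = 4.32e-05). A further ClpB gene (Cz16g16100) was called higher (log2 fold change 1.14), and the ClpB gene Cz06g27180 overlapped between the times (log2 fold change 0.34, adjusted p = 0.161, and -0.10 on TPM). ClpD (Cz10g08290) fell, with 38.9, 54.7 and 75.5 FPKM at 6 h and 296, 291 and 266 FPKM at 0 h, a log2 fold change of -2.08 (SE 0.23, adjusted p = 0.000425). It was the most abundant chaperone gene of the 20 at 0 h in each culture. At 6 h it stood above 65.7, 74.3 and 83.5% of all genes tested, and at 0 h above 96.7 to 97.1% of them. The orthology column names this gene ClpC, the close relative of ClpD, and its call was kept without any single library.

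Of the 7 genes of the HSP20 family, 6 were tested, and 2 were called higher, 1 lower and 3 neither way. Over all genes tested, 20% were called higher and 26.6% lower, so the calls of these few genes do not set the family apart. Their summed FPKM was 196, 230.5 and 249 in the 6 h cultures and 217, 208 and 216 in the 0 h cultures, so the total overlapped between the times. Cz05g36020 had 25.4, 28.2 and 30.1 FPKM at 6 h and 13.9, 11.7 and 13.95 FPKM at 0 h, a log2 fold change of 1.39 (SE 0.13, adjusted p = 0.00022). UNPLg00116 fell. It had 10.8, 18.4 and 22.1 FPKM at 6 h and 60.0, 50.3 and 55.6 FPKM at 0 h, a log2 fold change of -1.44 (SE 0.26, adjusted p = 0.00348), with no overlap, though its call was lost with the fold limit inside the test (adjusted p = 0.208). Cz05g35100 had 10.5, 12.4 and 11.6 FPKM at 6 h and 18.1, 22.1 and 18.2 FPKM at 0 h, without overlap, and a log2 fold change of -0.44 (SE 0.14, adjusted p = 0.0332), short of the limit. The most abundant gene of the family, Hsp20 (Cz06g22220), had 74.3, 95.8 and 125 FPKM at 6 h and 83.8, 87.0 and 84.5 FPKM at 0 h, a spread at 6 h that covers all 0 h values. The lowest gene that was tested, Cz07g17090, stayed under 7 FPKM in every culture.

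The remaining 3 chaperones held the most abundant gene of all members at 6 h. HSP31 (Cz07g16100), a member of a family of chaperones and glyoxalases in *Escherichia coli* and yeast, had 1079, 1022 and 893 FPKM at 6 h and 204, 212 and 205 FPKM at 0 h, a log2 fold change of 2.57 (SE 0.12, adjusted p = 1.75e-05). It exceeded 98.7 to 99.1% of all genes tested at 6 h and 95.6 to 95.9% at 0 h. The orthology column names it a D-lactate dehydratase, an enzymatic name for the same family. HspQ (Cz08g09030), a heat-shock protein of *E. coli*, had the smallest change, with 32.6, 31.3 and 33.4 FPKM at 6 h and 28.3, 26.6 and 27.2 FPKM at 0 h. Its values do not overlap, and its log2 fold change of 0.55 (SE 0.10, adjusted p = 0.00369) is under the limit. The orthology column also gives this gene the name of an F-box protein. Hsp33 (Cz03g28230), in *E. coli* a chaperone switched on by oxidation, had a log2 fold change of 0.69 (SE 0.16, adjusted p = 0.0106), and its deposited values overlap.

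Other genes of protein quality control were looked at beside the members. The 14 genes of the ATP-dependent proteases of organelles (Clp, Lon, FtsH, AAA and HslUV) had 0 calls in either direction by limma, with 7 of them above 0 and 0 below at an unadjusted p under 0.05, and log2 fold changes of -0.74 to 0.83. Of the 4 genes annotated as proteases of ubiquitin and related tags, 0 were called higher by limma (also at an unadjusted p under 0.05) and 2 lower. These were the NEDD8-specific protease gene Cz09g04160, with 13.7, 14.9 and 6.16 FPKM at 6 h and 73.6, 99.0 and 96.2 FPKM at 0 h (log2 fold change -2.72, SE 0.36, adjusted p = 0.000842), and ubiquitin-specific peptidase 24 (Cz01g33200, log2 fold change -1.19, adjusted p = 0.0259). Over the study's whole list of 88 proteases and peptidases, 20 were called higher and 21 lower, shares near the 20% and 26.6% of all genes tested, with a median log2 fold change of 0.22. Both DnaJ-domain genes of its list of transcription factors, a class of HSP70 partners, were called higher, Cz14g14020 with a log2 fold change of 1.65 (SE 0.12, adjusted p = 6.69e-05) and Cz14g02220 with 1.18. The heat shock factor 1 gene (Cz04g32130), in other organisms the regulator of the heat-shock response, had 20.7, 26.5 and 41.0 FPKM at 6 h and 42.2, 42.2 and 38.8 FPKM at 0 h, which overlap (log2 fold change -0.23, SE 0.25, adjusted p = 0.43).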

How the data were processed

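Each library stands for 1 culture. The authors deposited FPKM per gene model, with 2 decimals and without scaling between libraries, and a gene absent from a list was taken as 0. Per the study's methods, TopHat and Cufflinks made these values, whereas the submitters' processing notes name HISAT, Bowtie2 and RSEM. The genome build is not given in the sources used here. The depth behind a single value is unknown, so the spread of the 3 cultures gives its precision. The members, role groups and lists came from the study's gene tables and were chosen with earlier results of these data known. Values and comparisons in those tables were not used, and sequences were not used here.

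Genes were fitted with limma 3.58.1 in R 4.3.3 (lmFit, eBayes with a mean-variance trend, time as the only term, two-sided, Benjamini-Hochberg adjustment over all 13886 genes), after scaling as given above with a pseudocount of 0.1. The genes named are, per role group, the members with the largest and the smallest change, every member called lower, both pairs of neighbouring identifiers, both beta 1 genes and the member not tested. Others named with values were picked with those values in view. The fit was run on simulated data with few changed genes, in both directions, and independent noise. That run does not test the scaling or the differences between the 6 h cultures. No member had the same values as another gene in all libraries. Alternatives were other scalings, pseudocounts of 1 and 0.01, no filter or a mean of 10 FPKM, a replicate block, library weights (gene-by-gene estimation), the fold limit inside the test and leaving out each library.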

Additional observations from a re-analysis of the deposited data

How the results depend on the processing

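Both pseudocounts, both filters and the library weights kept the counts of called proteasome and chaperone genes within 1.5 times. The weights of 6 h replicates 1, 2 and 3 were 0.230, 5.15 and 0.099, so at 6 h the weighted fit rests mostly on replicate 2. On TPM the proteasome genes had 11 calls higher, 1 lower and a median log2 fold change of 0.89, and the chaperones 5 calls higher and a median of 0.48, where 11.7% of all genes tested were called higher, against 20% with the median-of-ratios scaling. The chaperone median was 0.61 without scaling and with upper-quartile scaling. With the fold limit inside the test 1 proteasome gene was called higher and 0 lower, and 7 chaperones were called higher and 1 lower. Without each library in turn, 20 to 24 proteasome genes were called higher with a median of 1.14 to 1.54, and 9 to 10 chaperones with a median of 0.78 to 1.13. Of the 24 proteasome calls, 20 were kept without any single library, and 11 under all scalings.

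Some values near 0 changed sign. Cz05g35220 was at -0.12 without scaling, -0.12 with upper-quartile scaling and -0.26 on TPM, Cz10g11260 at -0.050 and Cz06g27180 at -0.10 on TPM, and Cz07g17090 at 0.18 with library weights and at -0.34 to 0.18 over the libraries left out in turn, above 0 without 0 h replicate 1, 0 h replicate 3 or 6 h replicate 3. None of these was called. The cause was not tested.

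The labels number the cultures 1 to 3 at both times. Deviations of same-numbered cultures from the mean of their time correlated at -0.30, -0.11 and -0.49 over genes. With 3 cultures per time these deviations depend on each other, so the correlations cannot decide whether the numbers pair the cultures. With the replicate block 24 proteasome genes were called higher and 0 lower (limma, median 1.33), and 9 chaperones higher and 2 lower (median 0.92).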
